A study of Homo sapiens with 15 samples.

Results

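The comparison described here asks what 6 h of enzalutamide did to gene expression in prostate cancer cells that were also receiving PF-543. Enzalutamide plus PF-543 (3 arrays) was set against PF-543 without enzalutamide (3 arrays), which is 6 of the 15 arrays of the series, chosen by their labels. All arrays held RNA of C42B, a human prostate cancer line derived from LNCaP that grows without testicular androgen, seeded at 140000 cells per well and grown for 3 days in 2 ml of medium with 10% serum. The drugs were 10 µM enzalutamide and 15 µM PF-543, each for 6 h, so both groups carried PF-543 and differed by enzalutamide. The enzalutamide effect was also read in 2 other settings, as enzalutamide (2 arrays) against 0.125% DMSO (3 arrays), and as enzalutamide plus 15 µM ABC294640 (3 arrays) against ABC294640 (1 array). For the drug-treated wells the labels record no DMSO percentage. Nothing in the labels tells if the replicates came from separate cultures, and the p-values then cover only the spread among these arrays, which may be technical. In such bulk RNA, fewer cells of a type and less RNA per cell cannot be told apart.

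Enzalutamide is an antagonist of the androgen receptor, a nuclear receptor that binds DNA when it is bound by androgen and switches on genes of the luminal prostate cell such as KLK3, TMPRSS2 and SLC45A3. PF-543 inhibits sphingosine kinase 1 and ABC294640 sphingosine kinase 2, the enzymes that phosphorylate sphingosine to sphingosine 1-phosphate. ATF4 is a transcription factor whose translation increases when cells are short of amino acids or their endoplasmic reticulum is stressed, and it switches on DDIT3, CHAC1, genes of amino acid synthesis and amino acid transporters. Sterol synthesis is run by a separate transcription factor, SREBF2, which raises the enzymes of the mevalonate pathway when membrane cholesterol is low.

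Expression was measured for 17687 genes as log2 values per probe set, and differences are enzalutamide plus PF-543 minus PF-543, so that a difference of -1 is a halving of the signal. A gene was called changed when its adjusted p (limma, Benjamini-Hochberg over all genes) was under 0.05. The 6 arrays were much alike, with medians over genes between 7.06 and 7.09 and Pearson correlations over genes of 0.99636 to 0.99662 among the enzalutamide plus PF-543 arrays, 0.99625 to 0.99638 among the PF-543 arrays and 0.99536 to 0.99631 between the groups. The 12 luminal prostate markers measured had a median signal at the 96.5th percentile of all genes, while basal, neuroendocrine, fibroblast, leukocyte and endothelial markers had medians at percentiles 21.7, 17.3, 36.7, 40.3 and 14.0. None of those markers of other cell types was called changed. Their lists held 5 to 9 measured genes each and only 0.192% of all genes were called, so this says little. The epithelial genes KRT8, KRT18, EPCAM and CDH1 differed by -0.06, -0.06, 0.06 and 0.09. The DMSO arrays, which enter only the comparison with vehicle, stood somewhat apart, with a mean correlation of 0.99491 to the treated arrays against 0.99588 between treated arrays of different groups. They were also less alike among themselves (mean 0.99578) than treated arrays of the same group were (0.9963).

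Enzalutamide added to PF-543 lowered 28 genes and raised 6. The 5 largest falls were in SNAI2, C1orf116, ZBTB16, RHOU and KLF5. Genes that androgen is known to induce made up 9 of the 28, among them C1orf116, ZBTB16, SLC45A3 and TMPRSS2. The 3 largest rises were in DDIT3, CHAC1 and DDIT4, which ATF4 is known to induce. Of all genes, 0.158% were called lower and 0.0339% higher, 0.192% together. At least 2-fold differences were found for 12 of the 28 lower and 3 of the 6 higher genes. In all 34 genes the 3 arrays of one group lay wholly above the 3 of the other, a separation that 14.6% of all genes showed. At an unadjusted p under 0.05 there were 1505 genes, where chance alone would give 884. They were 4.31% of all genes in the lower and 4.2% in the higher direction. Leaving out any one of the 6 arrays lowered the count to between 14 (without enzalutamide plus PF-543 replicate 3) and 24 (without enzalutamide plus PF-543 replicate 1). Over all alternatives other than the 2-fold minimum, 14 of the 34 genes kept their call in each.

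**Figure D1:**
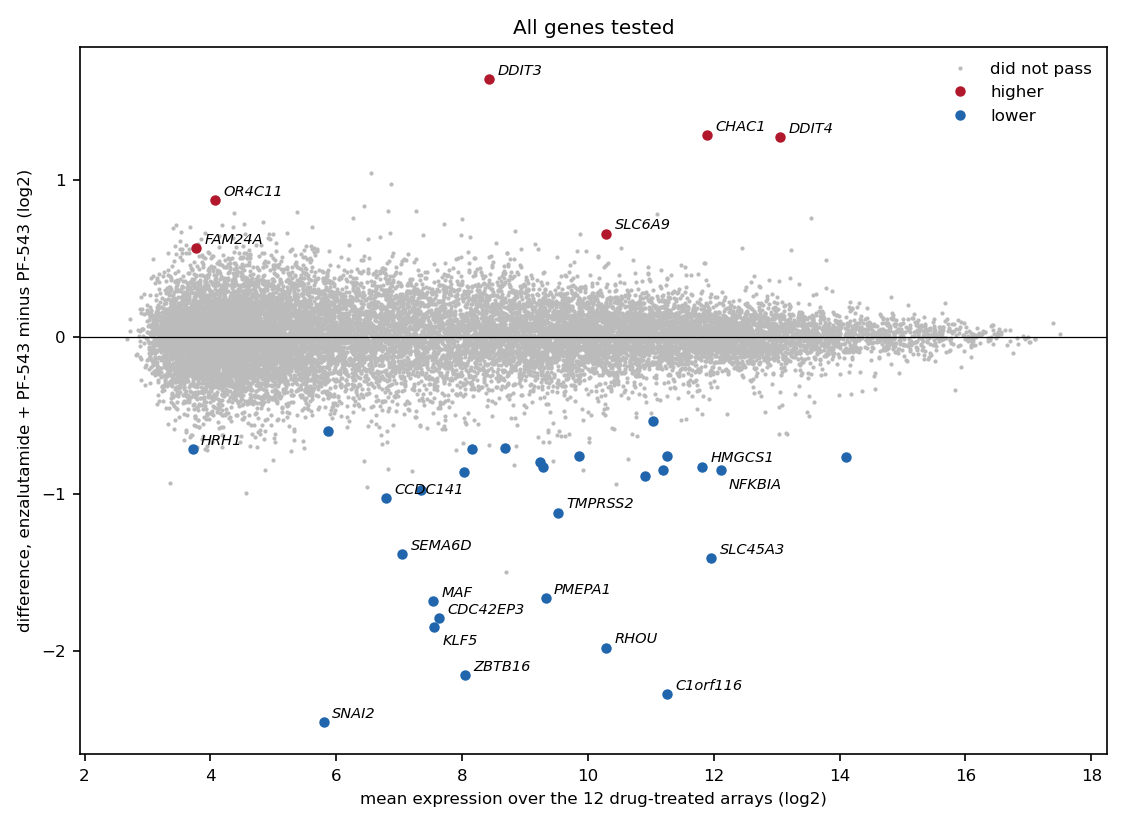
Each point is a gene, with its mean over the 12 drug-treated arrays on the horizontal axis (log2) and its difference, enzalutamide plus PF-543 minus PF-543, on the vertical axis (log2). Coloured points are the 34 genes past the adjusted threshold, and the falls reach further from 0 (SNAI2, -2.45) than the rises (DDIT3, 1.64).

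Genes known to be induced by androgen lay lower throughout with enzalutamide plus PF-543. Of 36 measured members of this list, 9 were called lower and 0 higher, and all 36 differences lay below 0, between -2.27 and -0.05 with a median of -0.41. Over all genes the median was 0.01, and 0.158% were called lower. In 25 of the 36, every enzalutamide plus PF-543 array was below every PF-543 array, against 6.99% of all genes. The list was chosen from knowledge of the receptor with earlier results of these arrays known, so its direction is not independent evidence.

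C1orf116, known as specifically androgen-regulated gene, had log2 expression of 10.47, 10.78 and 10.73 in the enzalutamide plus PF-543 arrays, against 12.94, 12.97 and 12.89 in the PF-543 arrays. The fall was 4.83-fold (log2 -2.27, SE 0.11, adjusted p = 7.92e-06), and the gap between the groups was several times their spread. ZBTB16, which encodes the zinc finger repressor PLZF and is induced by both androgen and glucocorticoid receptors, had 7.72, 7.29 and 6.97 with enzalutamide plus PF-543, against 9.52, 9.48 and 9.45 with PF-543. The fall was 4.46-fold (log2 -2.16, SE 0.17, adjusted p = 0.000357), and its 3 combination arrays were more spread than its 3 PF-543 arrays. CDC42EP3, an effector of the small GTPase CDC42, had 7.26, 7.10 and 6.95 with enzalutamide plus PF-543, against 9.10, 8.88 and 8.71 with PF-543. All 3 combination arrays were low, 3.47-fold on average (log2 -1.79, SE 0.17, adjusted p = 0.000938). MAF, a basic leucine zipper transcription factor, had 7.11, 6.87 and 6.99 with enzalutamide plus PF-543, against 8.60, 9.09 and 8.33 with PF-543. Its difference was -1.68 (SE 0.20, adjusted p = 0.00547), with the wider spread among the PF-543 arrays.

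PMEPA1, a membrane protein that restrains TGF-beta signalling, had 8.76, 8.94 and 8.34 with enzalutamide plus PF-543, against 10.55, 10.32 and 10.17 with PF-543, 3.17-fold lower (log2 -1.67, SE 0.16, adjusted p = 0.00107). SLC45A3, the prostate-restricted membrane protein prostein, had 11.38, 11.44 and 11.44 with enzalutamide plus PF-543, against 12.91, 12.82 and 12.76 with PF-543, 2.66-fold lower (log2 -1.41, SE 0.10, adjusted p = 0.000139). TMPRSS2, a membrane serine protease whose promoter is often fused to ERG in prostate cancer, had 9.09, 9.38 and 9.29 with enzalutamide plus PF-543, against 10.40, 10.33 and 10.39 with PF-543, 2.17-fold lower (log2 -1.12, SE 0.10, adjusted p = 0.000694). Of these 3 genes PMEPA1 varied most among replicates. That the groups were apart was required by the rule for the largest falls, and it held in all 34 called genes. The list's other called members were the zinc finger gene ZBTB10 (-0.89, adjusted p = 0.0298) and the transcription elongation factor ELL2 (-0.76, adjusted p = 0.0173). Each of these 2 lost its call in 5 of the 6 fits without one array and in the fit of the 6 arrays alone (adjusted p up to 0.181 for ZBTB10 and 0.0988 for ELL2), so that the list's count was 7 or 8 in every fit without one array. ZBTB10 kept its call without enzalutamide plus PF-543 replicate 2 and ELL2 without enzalutamide plus PF-543 replicate 1.

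The kallikreins, the best-known secreted products of the receptor, did not pass the threshold. KLK3, which encodes prostate-specific antigen, had 15.69, 15.74 and 15.64 with enzalutamide plus PF-543, against 16.05, 16.02 and 16.01 with PF-543, a difference of -0.34 (SE 0.08, adjusted p = 0.239). Its signal stood at the 99.5th percentile of all genes, and how linear the array is at that brightness was not tested. KLK2 had 12.77, 12.92 and 12.74 with enzalutamide plus PF-543, against 13.59, 13.33 and 13.37 with PF-543, a difference of -0.62 (SE 0.12, adjusted p = 0.0988). In both genes all 3 combination arrays lay below all 3 PF-543 arrays, which 6.99% of all genes showed. Others of the list that did not pass included NDRG1 (-0.78, adjusted p = 0.0988), ERRFI1 (-0.61, adjusted p = 0.056), the phosphoinositide phosphatase INPP4B (-0.25) and TPD52 (-0.07).

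**Figure D2:**
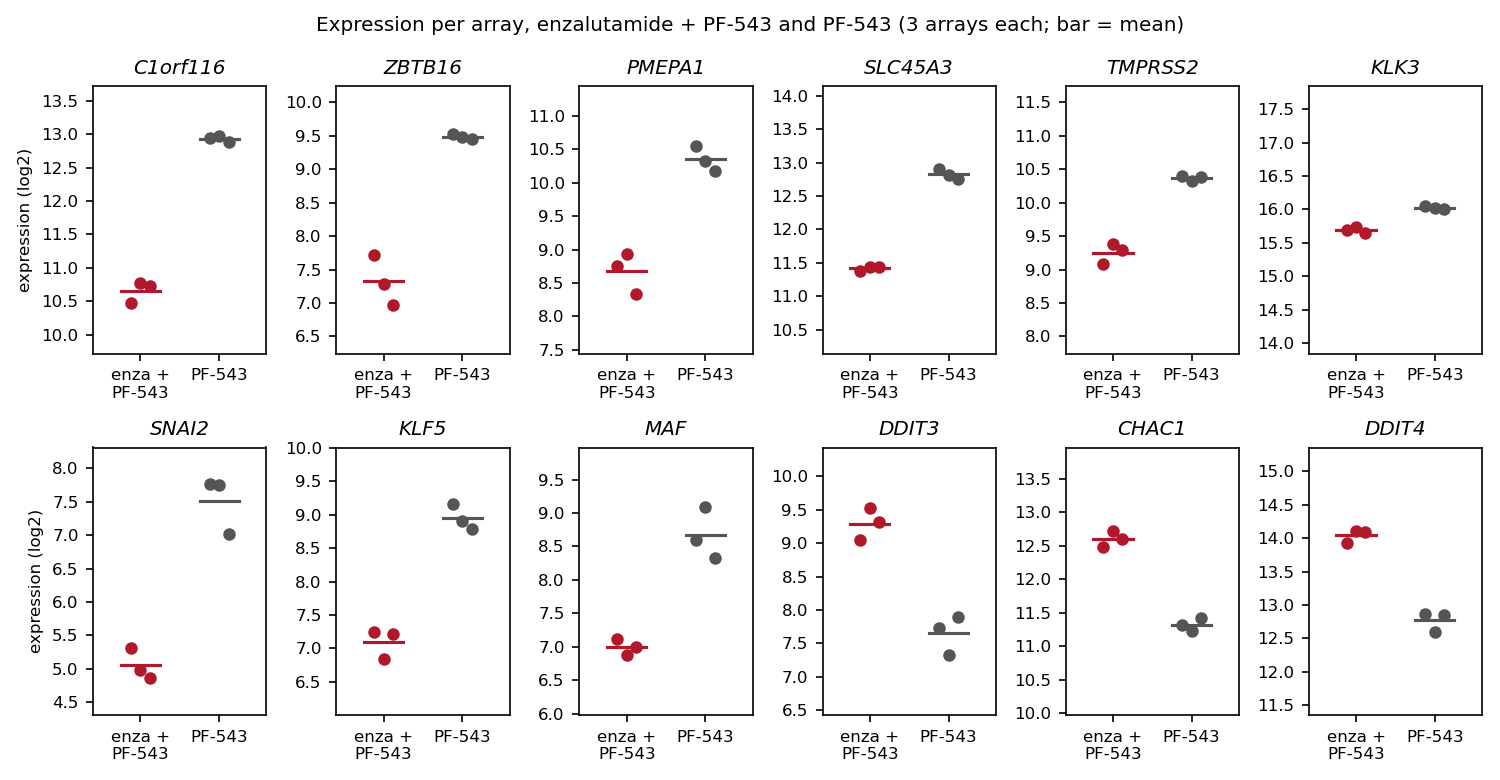
Log2 expression of selected genes in each array, with the 3 enzalutamide plus PF-543 arrays left and the 3 PF-543 arrays right in every panel, and a bar at each group's mean. SNAI2, C1orf116 and TMPRSS2 lie lower with enzalutamide plus PF-543, DDIT3, CHAC1 and DDIT4 lie higher, and no panel of a called gene shows overlap.

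The promoters of the 3 androgen-induced genes with the largest falls that have a RefSeq entry here are shown, since androgen receptor binding near a gene is how androgen is known to induce it. Each runs 5′ to 3′ on the gene's strand in GRCh38.p14, from 250 bases before the start to 50 after it (300 bases). C1orf116 is at chr1:207032707-207033006 on the minus strand, CDC42EP3 at chr2:37672900-37673199 on the minus strand and MAF at chr16:79600688-79600987 on the minus strand.
C1orf116: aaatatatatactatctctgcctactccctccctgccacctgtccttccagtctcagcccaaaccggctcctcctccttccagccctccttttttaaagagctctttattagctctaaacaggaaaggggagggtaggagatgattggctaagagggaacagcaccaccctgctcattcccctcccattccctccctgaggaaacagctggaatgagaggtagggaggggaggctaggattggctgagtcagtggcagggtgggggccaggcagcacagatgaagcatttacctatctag
CDC42EP3: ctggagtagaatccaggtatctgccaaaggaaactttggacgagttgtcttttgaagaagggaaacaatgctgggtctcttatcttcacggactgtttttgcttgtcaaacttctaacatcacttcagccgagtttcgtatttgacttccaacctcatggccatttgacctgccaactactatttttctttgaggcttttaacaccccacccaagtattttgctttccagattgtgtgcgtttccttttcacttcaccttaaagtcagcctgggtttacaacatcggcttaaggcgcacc
MAF: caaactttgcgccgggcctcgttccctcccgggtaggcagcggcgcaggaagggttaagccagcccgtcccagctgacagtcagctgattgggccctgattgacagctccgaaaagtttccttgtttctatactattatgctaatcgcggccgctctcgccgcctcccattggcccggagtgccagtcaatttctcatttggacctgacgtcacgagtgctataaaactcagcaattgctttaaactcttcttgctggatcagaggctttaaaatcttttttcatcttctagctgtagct
None of the 3 holds the full androgen response element (AGAACA, 3 bases of any kind, then TGTTCT) or the single site AGAACA, on either strand, so nothing is in capitals. The single site was found in 5 of the 21 genes called lower that have a promoter entry (DLG2, FBXO38, IL6R, KLF5 and PMEPA1), which is 23.8%, against 14.9% of all 27305 promoters and 10.9% of those of measured genes, and in 3 of 30 androgen-induced genes (10.0%). The full element was found in 1 of the 27305 promoters and in none of these lists. The single site is part of the full element, so their counts overlap. These letters being absent from 300 bases says nothing of sites elsewhere.

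Other transcription factors also fell. SNAI2, the repressor Slug of the epithelial-mesenchymal programme, had 5.31, 4.99 and 4.86 with enzalutamide plus PF-543, against 7.76, 7.75 and 7.01 with PF-543. This was the largest fall of all genes called, 5.48-fold (log2 -2.45, SE 0.32, adjusted p = 0.0123), but the third PF-543 array was well below the other two. The call was lost without replicate 2 or 3 of enzalutamide plus PF-543 or replicate 1 or 2 of PF-543 (adjusted p up to 0.0784). KLF5, a Krüppel-like factor of epithelial cells, had 7.24, 6.85 and 7.21 with enzalutamide plus PF-543, against 9.16, 8.90 and 8.78 with PF-543, and was 3.60-fold lower (log2 -1.85, SE 0.18, adjusted p = 0.00107). Its relative KLF7 was 0.85 lower on the log2 scale (log2 -0.85, adjusted p = 0.00745). On the list of 19 epithelial and mesenchymal transcription factors, SNAI2, KLF5 and MAF were called lower and 0 higher. Of all genes, 0.158% were called lower and 0.0339% higher. This list was also chosen with earlier results of these arrays known. Its median was 0.01, so the other members did not share a direction. SNAI1, ZEB1, ZEB2 and TWIST1, which act in the same programme as SNAI2, had differences of 0.11, -0.13, 0.19 and 0.19. SPDEF, an ETS factor of the prostate epithelium, differed by -0.49, and ETV1, another ETS factor, by 0.47.

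The remaining falls had varied roles. RHOU, an atypical small GTPase, had 9.64, 9.46 and 9.60 with enzalutamide plus PF-543, against 11.70, 11.48 and 11.46 with PF-543, and was 3.94-fold lower (log2 -1.98, SE 0.13, adjusted p = 9.96e-05). SEMA6D, a transmembrane semaphorin, had 6.60, 6.62 and 6.83 with enzalutamide plus PF-543, against 8.19, 8.0 and 8.02 with PF-543, and was 2.61-fold lower (log2 -1.39, SE 0.14, adjusted p = 0.00164). RHOU and CDC42EP3 thus both fell, one a small GTPase and the other an effector of one. The coiled-coil gene CCDC141 (-1.03, adjusted p = 0.0206), the synaptic scaffold DLG2 (-0.97, adjusted p = 0.0298) and FAM110B (-0.86, adjusted p = 0.0364) also fell. Each of these 3 lost its call in at least 4 of the 6 fits without one array (adjusted p up to 0.118, 0.152 and 0.214 over all alternatives). NFKBIA, the inhibitor that holds NF-kB in the cytoplasm, had 11.55, 12.02 and 11.85 with enzalutamide plus PF-543, against 12.70, 12.59 and 12.68 with PF-543, a difference of -0.85 (SE 0.12, adjusted p = 0.0183). The call was lost without replicate 3 of enzalutamide plus PF-543, without replicate 1, 2 or 3 of PF-543 and in the fit of the 6 arrays alone (adjusted p up to 0.148). NFKBIA was alone on its list, with 0 of the other 13 NF-kB genes called in either direction and a list median of 0.06. Of all genes, 0.192% were called. The interleukin-6 receptor IL6R differed by little between replicates, with 10.99, 11.03 and 10.90 with enzalutamide plus PF-543, against 11.74, 11.72 and 11.73 with PF-543, and fell by 0.76 on the log2 scale (adjusted p = 0.00418). IL6R was not taken by the rule for named genes and was picked after its values were seen, as were KLF7, ELL2 and the following. PEX10, a peroxisome assembly factor, the chromodomain gene CDYL2 and ENDOD1 fell by 0.83, 0.80 and 0.76 on the log2 scale. DIPK2A, EFCAB12, FBXO38 and the histamine receptor HRH1 fell by 0.71, 0.60, 0.54 and 0.72 on the log2 scale. PEX10, CDYL2 and ENDOD1 lost their calls in most fits without one array (adjusted p up to 0.148, 0.101 and 0.118 over all alternatives). DIPK2A, EFCAB12 and FBXO38 lost theirs without any one of the 6 arrays (up to 0.111, 0.28 and 0.148). HRH1 kept its call among those fits only without PF-543 replicate 1 (up to 0.111).

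Genes known to be induced by ATF4 lay mostly higher. Of 39 measured members, 4 were called higher and 0 lower, 36 differences lay above 0 and the median was 0.25. Of all genes, 0.0339% were called higher and 0.158% lower. This list too was chosen with earlier results of these arrays known, so its direction is not independent evidence. In 25 members all combination arrays were above all PF-543 arrays, against 7.6% of all genes. DDIT3, which encodes the stress factor CHOP, had 9.04, 9.53 and 9.31 with enzalutamide plus PF-543, against 7.73, 7.33 and 7.90 with PF-543, and was 3.12-fold higher (log2 1.64, SE 0.19, adjusted p = 0.00547). CHAC1, which degrades glutathione, had 12.48, 12.72 and 12.60 with enzalutamide plus PF-543, against 11.31, 11.22 and 11.42 with PF-543, and was 2.43-fold higher (log2 1.28, SE 0.11, adjusted p = 0.000624). DDIT4, an inhibitor of mTORC1 also called REDD1, had 13.93, 14.11 and 14.09 with enzalutamide plus PF-543, against 12.87, 12.60 and 12.85 with PF-543, and was 2.41-fold higher (log2 1.27, SE 0.11, adjusted p = 0.000517). In these 3 genes every combination array was at least 1.06 above every PF-543 array. SLC6A9, the glycine transporter GlyT1, had 10.62, 10.63 and 10.64 with enzalutamide plus PF-543, against 9.90, 10.08 and 9.94 with PF-543. It was 1.58-fold higher (log2 0.66, SE 0.11, adjusted p = 0.0416), a call that was lost without any one of the 6 arrays (adjusted p up to 0.193).

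Other members of the list did not pass. STC2, a secreted glycoprotein, had 12.76, 12.57 and 12.81 with enzalutamide plus PF-543, against 12.14, 12.04 and 12.26 with PF-543 (0.57, adjusted p = 0.0558). ASNS, asparagine synthetase, had 14.12, 14.06 and 14.02 with enzalutamide plus PF-543, against 13.67, 13.53 and 13.53 with PF-543 (0.49, adjusted p = 0.0619). The cytokine GDF15 differed by 0.78 (adjusted p = 0.0988), SESN2, a brake on mTORC1, by 0.67 (adjusted p = 0.171) and the pseudokinase TRIB3 by 0.66 (adjusted p = 0.208). In all 5 every combination array was above every PF-543 array, which 7.6% of all genes showed. These 5 were chosen after their values were seen. ATF4 itself, which is controlled mainly in translation, differed by 0.22 (adjusted p = 0.461) and ATF3 by 0.30 (adjusted p = 0.587). The transporter SLC38A2, at -0.33, was the lowest member.

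The promoters of DDIT3 and CHAC1, the ATF4-induced genes with the largest rises, are shown because ATF4 acts at a short element that starts TGATG. DDIT3 is at chr12:57520465-57520764 on the minus strand and CHAC1 at chr15:40953221-40953520 on the plus strand, in the same window and build as above, with capitals marking a match to TGATGNAA on either strand.
DDIT3: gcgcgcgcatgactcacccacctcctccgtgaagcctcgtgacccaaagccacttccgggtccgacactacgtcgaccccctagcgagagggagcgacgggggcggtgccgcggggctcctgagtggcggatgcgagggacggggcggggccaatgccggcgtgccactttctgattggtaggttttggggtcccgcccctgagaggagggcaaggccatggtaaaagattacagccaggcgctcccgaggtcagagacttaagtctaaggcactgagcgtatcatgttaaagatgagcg
CHAC1: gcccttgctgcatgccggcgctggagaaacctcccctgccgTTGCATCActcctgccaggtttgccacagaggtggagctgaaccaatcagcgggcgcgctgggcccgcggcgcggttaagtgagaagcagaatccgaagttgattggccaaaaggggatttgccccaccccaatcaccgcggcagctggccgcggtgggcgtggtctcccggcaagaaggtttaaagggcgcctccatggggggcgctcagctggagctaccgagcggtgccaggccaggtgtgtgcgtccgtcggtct
The CHAC1 match, TTGCATCA, is the element read on the opposite strand and covers bases 42 to 49 of the window, beginning at -209 from the start. DDIT3 has none in this window. The element was found in 6 of 32 promoters of the list (ASNS, ATF3, CHAC1, FGF21, SLC3A2 and SLC7A1), which is 18.8%, against 3.67% of all 27305 promoters and 2.52% of those of measured genes, in 1 of the 6 genes called higher and in 0 of the 21 lower genes with an entry. Of those 6 list members, only CHAC1 was called. The list holds genes already known as ATF4 targets, so its higher share of the element says nothing of these arrays.

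Other stress programmes had no gene called, where 0.192% of all genes were called. Of 16 cytosolic tRNA synthetases, several of which ATF4 is known to induce, 0 were called, 15 lay above 0 and the median was 0.07. SARS1 (0.37, adjusted p = 0.317) was the highest. At an unadjusted p under 0.05, 4 were higher, against 4.2% of all genes. In 8 of the 16 every combination array was above every PF-543 array, against 7.6% of all genes, and in 1 below. Of 17 genes of the endoplasmic reticulum's unfolded protein response, 0 were called (2 higher at an unadjusted p under 0.05) and the median was -0.01. Its main chaperone HSPA5 differed by 0.01, while HERPUD1 and XBP1 differed by 0.38 and 0.36. Heat shock (15 genes), NRF2 (21 genes) and p53 (17 genes) targets had 0 called in either direction in limma, with 2 NRF2 genes higher at an unadjusted p under 0.05 and 0 of the heat shock and p53 lists.

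In sterol synthesis a single enzyme passed. HMGCS1, which makes HMG-CoA at the head of the mevalonate pathway, had 12.05, 11.81 and 12.04 with enzalutamide plus PF-543, against 12.86, 12.86 and 12.66 with PF-543. The fall was 1.77-fold (log2 -0.83, SE 0.11, adjusted p = 0.0162). The call was lost without replicate 2 or 3 of enzalutamide plus PF-543 or replicate 1 or 2 of PF-543 (adjusted p up to 0.0881), in the fit with the replicate number as a block and in that of the 6 arrays alone (adjusted p = 0.0942), while the difference over the alternatives stayed between -0.89 and -0.75. Of the 20 cholesterol synthesis genes measured, 19 lay below 0, the median was -0.19, and 11 were apart downwards, against 6.99% of all genes. The list's median was also -0.19 for enzalutamide against DMSO, and -0.08 with ABC294640, so its fall was not particular to the PF-543 setting. At an unadjusted p under 0.05, 10 of the 20 were lower, against 4.31% of all genes. MVD (-0.82, adjusted p = 0.241), the isomerase IDI1 (-0.50, adjusted p = 0.118), INSIG1, which retains the SREBP complex in the endoplasmic reticulum (-0.48, adjusted p = 0.271), and MSMO1 (-0.35, adjusted p = 0.325) did not pass. SQLE, the first oxygenation step, differed by -0.13 and the regulator SREBF2 by -0.04. Of 15 fatty acid genes 0 were called (2 lower at an unadjusted p under 0.05), with a median of -0.12, and ACSS2, the cytosolic acetyl-CoA synthetase, was lowest (-0.48, adjusted p = 0.333). In 7 of the 15 every combination array was below every PF-543 array, against 6.99% of all genes, and in 0 above. This list's median was 0.04 for enzalutamide against DMSO and -0.04 with ABC294640.

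The mean of HMGCS1 in both PF-543 groups lay above those of the other 4 groups. Its group means were 11.97 with enzalutamide plus PF-543 and 12.79 with PF-543, 11.15 with enzalutamide plus ABC294640 and 11.45 with ABC294640, and 11.29 with enzalutamide and 11.33 with DMSO. The enzalutamide effect was therefore -0.83 with PF-543, -0.30 with ABC294640 and -0.05 with vehicle. The effect with PF-543 minus that with vehicle was -0.78 (95% interval -1.19 to -0.37), which did not pass over all genes (adjusted p = 0.416). With a robust and trended prior it did (adjusted p = 0.0482). INSIG1 means were also highest in the PF-543 groups, 13.96 with enzalutamide plus PF-543 and 14.44 with PF-543, 12.65 with enzalutamide plus ABC294640 and 13.06 with ABC294640, and 12.80 with enzalutamide and 13.03 with DMSO. Its difference between the PF-543 and vehicle settings was -0.25 (95% interval -0.63 to 0.12).

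**Figure D3:**
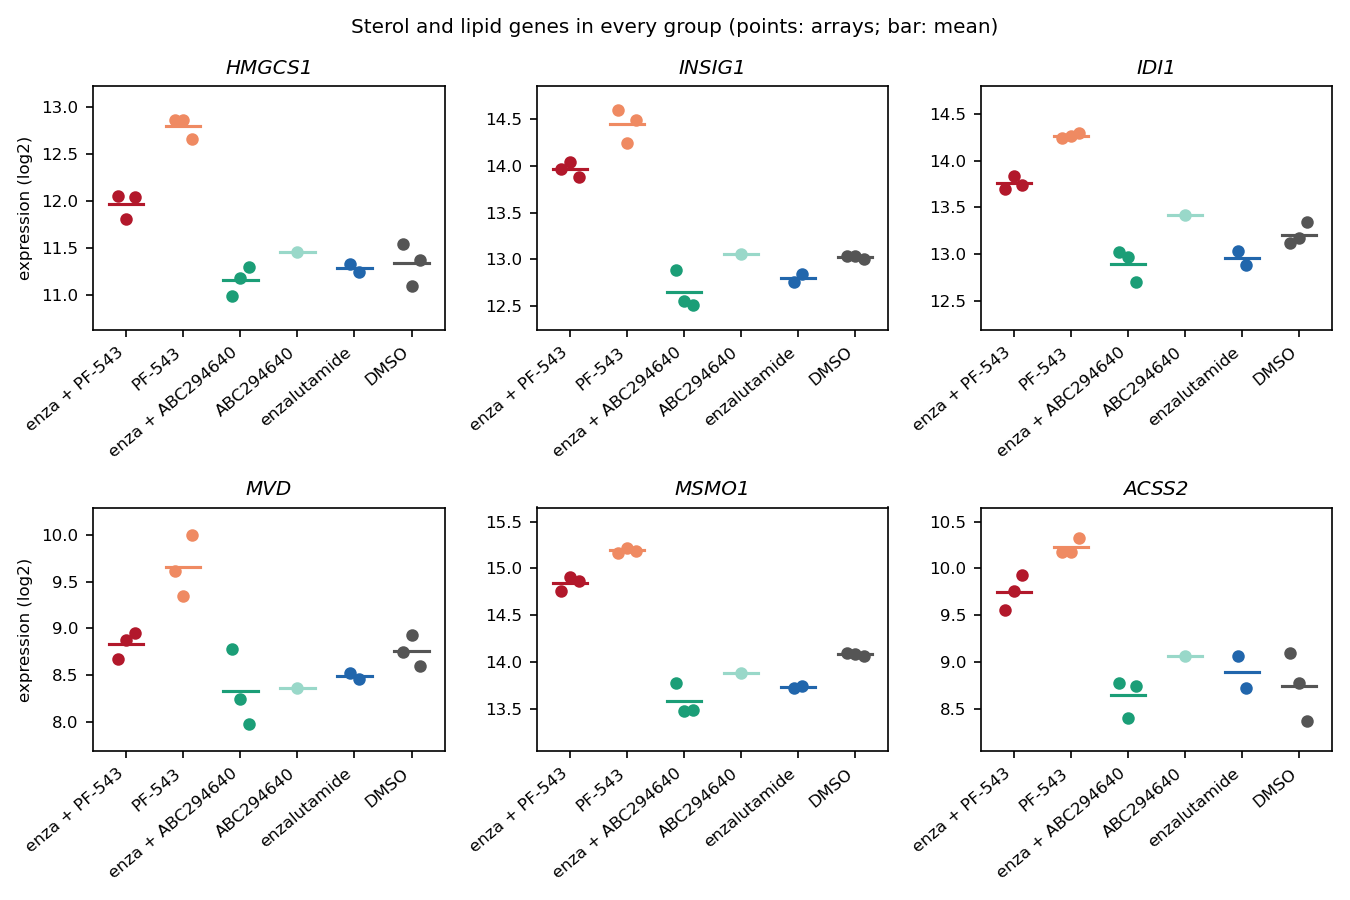
Log2 expression of sterol and lipid genes in every array of the 6 groups, each enzalutamide group left of its own reference, with bars at group means. HMGCS1 lies lower with enzalutamide plus PF-543 (11.97) than with PF-543 (12.79), and both lie above the other 4 groups.

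The pathway of PF-543's own target had no gene called. Of all genes only 0.192% were called, so none in a short list says little. SPHK1, sphingosine kinase 1, had 7.67, 7.72 and 7.87 with enzalutamide plus PF-543, against 7.64, 7.24 and 7.39 with PF-543, a difference of 0.33 (SE 0.13, adjusted p = 0.524). Of 29 sphingolipid genes 0 were called, and differences ran from -0.29 (the receptor S1PR4) to 0.33 with a median of 0.04. At an unadjusted p under 0.05, 1 was lower and 1 higher, against 4.31% and 4.2% of all genes. On the list of the androgen receptor's partners 0 of 11 genes were called. At an unadjusted p under 0.05, 3 were lower and 1 higher, against the same 4.31% and 4.2% of all genes. In 3 every combination array was below every PF-543 array, against 6.99% of all genes, and in 1 above, against 7.6%. The pioneer factor FOXA1 differed by -0.15, HOXB13 by 0.36 and the SUMO ligase PIAS1 by -0.45. Androgen-repressed genes (9 measured) had 0 called (1 lower and 1 higher at an unadjusted p under 0.05) and a median of -0.10. Of 16 steroid-converting enzymes 0 were called (2 lower and 1 higher unadjusted). The glucocorticoid receptor gene NR3C1 was dim, with 3.84, 3.50 and 3.83 with enzalutamide plus PF-543, against 4.45, 4.13 and 3.92 with PF-543 (adjusted p = 0.507). Of 8 glucocorticoid receptor targets ZBTB16 was the one called, and TSC22D3 differed by 0.38.

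**Figure D4:**
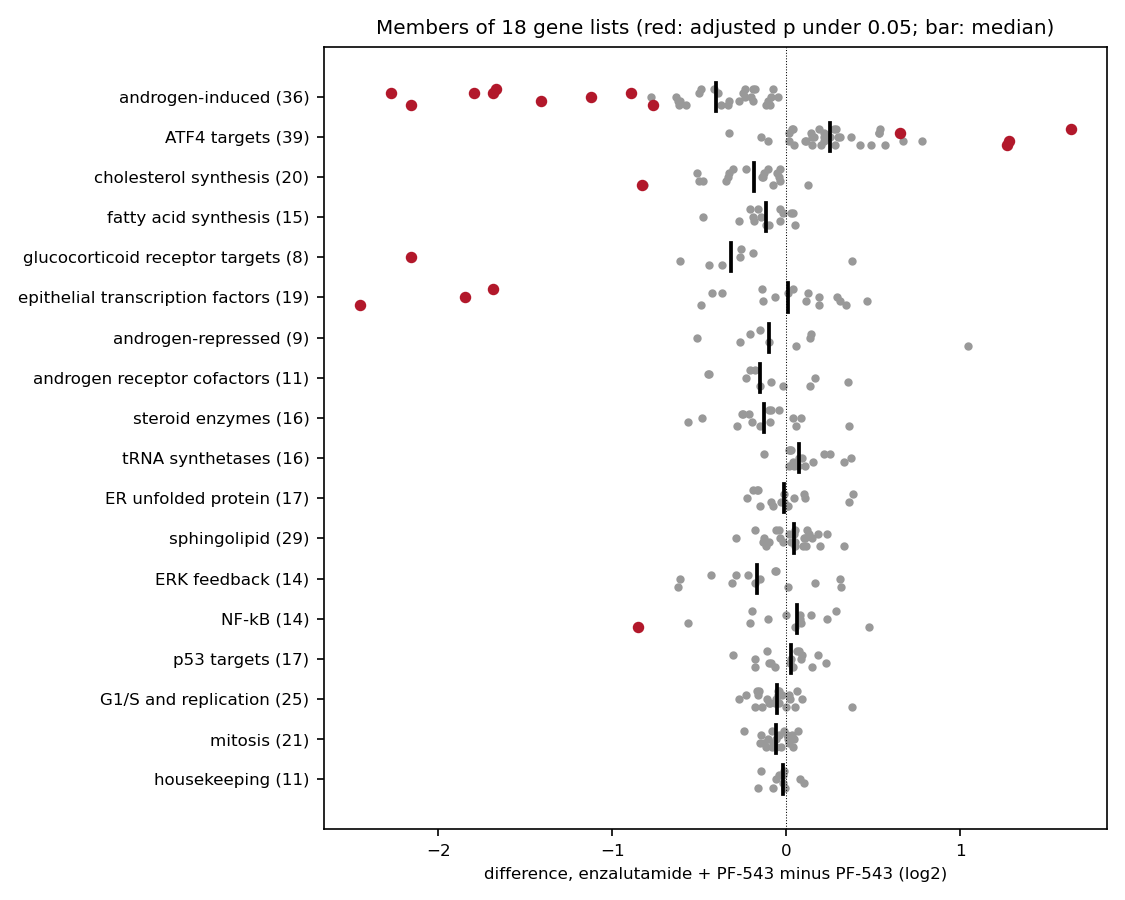
Differences (log2, enzalutamide plus PF-543 minus PF-543) of the members of 18 gene lists, each point a gene, red where called, with a bar at the list's median. The androgen-induced list lies wholly below 0 (median -0.41), the ATF4 list mostly above (median 0.25), and most of the others straddle 0.

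The same enzalutamide effect was then read without PF-543. Enzalutamide against DMSO had 55 genes called (0.311%), 33 lower (0.187%) and 22 higher (0.124%). Of the 34 genes called with PF-543, 22 were among them (19 lower, 3 higher), which is 64.7% of the 34 and 40% of the 55. Enzalutamide plus ABC294640 against the single ABC294640 array had 9 (0.0509%), of which 8 were shared, 88.9% of the 9 and 23.5% of the 34. The groups compared share no array across the 3 comparisons. However, the PF-543 and ABC294640 comparisons were fitted to the same 12 arrays and the vehicle comparison to all 15, each with a pooled spread. The overlaps of calls are therefore not independent. In each of the other settings 33 of the 34 genes had the same sign as with PF-543, HRH1 being the exception (0.19 with vehicle and 0.04 with ABC294640). Over the 28 lower genes the median difference was -0.88 with PF-543, -0.88 with ABC294640 and -0.94 with vehicle, and over the 6 higher genes 1.07, 0.77 and 0.85. Since the 34 were picked by their size with PF-543, their own median is favoured by that choice.

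Of the leading falls, SNAI2 differed by -2.45 with PF-543, -2.16 with ABC294640 and -1.99 with vehicle. C1orf116 differed by -2.27 with PF-543, -2.63 with ABC294640 and -2.55 with vehicle, ZBTB16 by -2.16, -2.13 and -2.32, and RHOU by -1.98, -2.01 and -1.81. TMPRSS2 differed by -1.12, -0.84 and -1.06 in the same order. Among the rises, CHAC1 differed by 1.28, 1.46 and 1.19 and DDIT4 by 1.27, 1.08 and 1.19. DDIT3 differed by 1.64 with PF-543, 0.79 with ABC294640 and 0.83 with vehicle. Its excess with PF-543 over vehicle was 0.81 (95% interval 0.18 to 1.44, adjusted p = 0.525).

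The difference between settings was tested for every gene. Testing the effect with PF-543 minus the effect with vehicle over all 17687 genes in limma gave 0 called, a smallest adjusted p of 0.215 and 1428 genes at an unadjusted p under 0.05, where chance gives 884. The 3 with the smallest p were GDNF-AS1 (1.14, adjusted p = 0.215), GPR151 (1.24, adjusted p = 0.392) and HPCAL1 (-1.04, adjusted p = 0.392). With a robust and trended prior 12 genes were called for this difference, 9 lower and 3 higher, among them ZFTA (1.24, adjusted p = 0.0023), HPCAL1 (adjusted p = 0.0482) and HMGCS1. The effect with PF-543 minus that with ABC294640 gave 0 called, a smallest adjusted p of 0.446 and 1170 unadjusted, led by OR6V1 (1.20, adjusted p = 0.446), INSL5 (1.17, adjusted p = 0.522) and FAM222B (-1.10, adjusted p = 0.522), and its reference rests on 1 array. For 7 of the 34 genes the unadjusted 95% interval of the difference from the vehicle setting did not include 0, against 1428 of all 17687 genes. The 34 were picked by their size with PF-543, which enters this difference, so the choice favours such intervals. The 7 included HMGCS1, DDIT3, HRH1 (-0.91) and DLG2, which differed by -0.97 with PF-543 and -0.23 with vehicle. For most of the leading genes the interval was wide, as for C1orf116 (0.28, interval -0.07 to 0.62) and SNAI2 (-0.47, interval -1.45 to 0.52), so effects of equal size are not shown either.

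**Figure D5:**
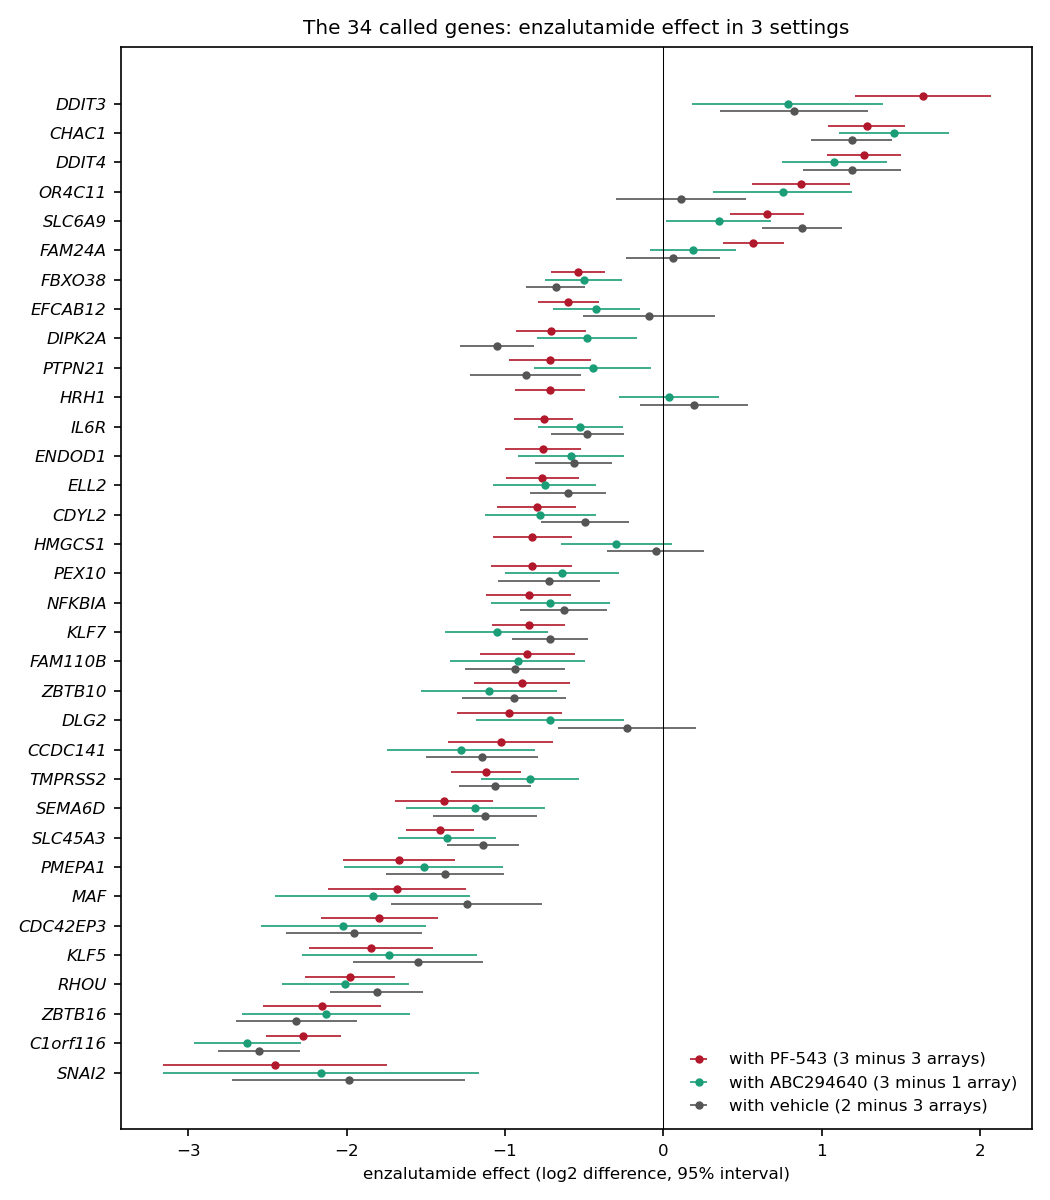
Enzalutamide effect (log2 difference, point with 95% interval) for the 34 called genes with PF-543, with ABC294640 and with vehicle. In 33 of the 34 genes the 3 points lie on the same side of 0, and HRH1 lies below 0 only in the PF-543 setting (-0.72).

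Calls near the threshold were fragile or dim. The nearest inside were PTPN21, a tyrosine phosphatase (-0.72, adjusted p = 0.0463), and OR4C11, an olfactory receptor gene (0.87, adjusted p = 0.0416). The nearest outside were BAMBI, a pseudoreceptor of TGF-beta family signalling (0.55, adjusted p = 0.051), and OTULINL (-0.85, adjusted p = 0.0531). OR4C11 had 4.23, 4.31 and 4.55 with enzalutamide plus PF-543, against 3.37, 3.51 and 3.60 with PF-543, and FAM24A had 4.04, 3.99 and 3.99, against 3.33, 3.57 and 3.42. With HRH1 these are the 3 called genes whose signal lay below the first quartile of all genes, and whether they exceed background was not tested.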

How the data were processed

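Arrays were grouped by their labels. The authors deposited log2 values for each probe set, made with RMA and Transcriptome Analysis Console 4.02, per the submitters' processing notes. The sources used here do not give the RMA variant, build or annotation, and scanner files were not used. RMA brings arrays to a common distribution, so a shift of most genes would not be seen. Of 21448 probe sets, 17709 had 1 gene symbol, 0 several and 3739 none here, and all 17709 matched RefSeq. The brightest probe set was kept for 20 genes with several, leaving 17687.

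Group means were fitted with limma 3.58.1 in R 4.3.3 to the 12 drug-treated arrays (5 groups, 7 residual and 3.76 prior degrees of freedom), so no DMSO array entered, with Benjamini-Hochberg adjustment over all genes at 0.05. Comparisons with vehicle used 15 arrays (9 residual, 3.82 prior). The lone ABC294640 array was taken to vary as the other groups do. The number of arrays limits the precision.

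The members and the 35 gene lists (631 genes, 528 measured) were chosen with earlier results of these data known. Named genes were the 15 largest rises and falls past the threshold without overlap between arrays, up to 4 called members of each list or otherwise up to 2 with the smallest p, KLK3, KLK2, TMPRSS2, SPHK1 and NR3C1 in any case, the 3 smallest p of each interaction where none passed, and the 2 nearest each side of the threshold. Some genes that the rule takes are not reported here. Other list members are given as values chosen after they were seen. Alternatives were other normalizations, gene filters, priors, array weights, a 2-fold minimum, a replicate block, other arrays in the fit and leaving out each array. Promoters came from RefSeq, and figures from matplotlib 3.10.9 in Python 3.11.15.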

Additional observations from a re-analysis of the deposited data

How the results depend on the processing

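Against 34 genes called as reported, a robust and trended prior called 149 (99 lower, 50 higher), all 15 arrays in the fit 55, only the 6 arrays 17, and a minimum of 2-fold 15. Leaving out each array in turn gave 14 to 24 calls. Without enzalutamide plus PF-543 replicate 1, 2 or 3 there were 24, 21 and 14, and without PF-543 replicate 1, 2 or 3 there were 18 each time. The replicate number as a block gave 21 calls, all among the 34, but same-numbered arrays deviated together with r of 0.0081, -0.0046 and 0.0274, so the numbers were not taken as pairs. Quantile normalization, median centring, cyclic loess, array weights, testing all probe sets and leaving out the dimmest 25% gave 36 to 46 calls.

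The count of androgen-induced genes called lower, 9 as reported, was 18 with the robust and trended prior, and that of ATF4-induced genes called higher, 4 as reported, was 12. The difference between the PF-543 and vehicle settings had 12 genes called with that prior and 0 in every other alternative run, and that between the PF-543 and ABC294640 settings 1 and 0. The cause of the higher counts was not tested. The replicate block was not run for the comparison with ABC294640, whose single array has no number.

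No named gene changed direction in any alternative (0 of 93). Of the 34 called genes, 14 kept the call in every alternative other than the 2-fold minimum: C1orf116, ZBTB16, RHOU, KLF5, CDC42EP3, MAF, PMEPA1, SLC45A3, SEMA6D, TMPRSS2, IL6R, DDIT3, CHAC1 and DDIT4. Signal over background was not available, which limits what can be said of dim genes.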

Other observations

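Some larger differences did not pass the threshold and were picked after their values were seen. THBS1, the secreted matrix protein thrombospondin 1, had the largest of these, -1.50 with PF-543 (SE 0.29, adjusted p = 0.0917), and it differed by -1.27 with vehicle and -1.11 with ABC294640. CROT, a peroxisomal carnitine acyltransferase, differed by -0.94 (adjusted p = 0.0574), with -0.87 with vehicle and -0.58 with ABC294640. MITF, a transcription factor best known in melanocytes, differed by 0.97 with PF-543 (adjusted p = 0.105) and by 0.04 with vehicle. ACKR3, an atypical chemokine receptor that androgen is known to repress, had 7.41, 7.0 and 6.60 with enzalutamide plus PF-543, against 5.66, 5.74 and 6.48 with PF-543 (1.04, adjusted p = 0.208), with the nearest arrays of the groups 0.12 apart.

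Growth and signalling lists had 0 genes called in either direction, where 0.192% of all genes were called. Among 14 feedback inhibitors of ERK and EGFR signalling the median was -0.17 with 4 lower at an unadjusted p under 0.05 (limma), a mark that 4.31% of all genes passed in that direction, and the phosphatase DUSP4 had 9.24, 9.26 and 9.19 with enzalutamide plus PF-543, against 9.71, 10.09 and 9.76 with PF-543 (-0.62, adjusted p = 0.0923). The 25 immediate early genes had a median of -0.06 with 7 lower at an unadjusted p under 0.05, the 25 genes of DNA replication and G1/S entry -0.05, the 21 mitotic genes -0.06, and the 15 MYC and ribosome biogenesis genes 0.05. The 9 metallothioneins all lay above 0 with a median of 0.06. The 11 housekeeping genes had a median of -0.02.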
